A study of Mus musculus with 10 samples.

Results

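The CCAAT/enhancer binding proteins (C/EBPs) *Cebpa*, *Cebpb* and *Cebpd* were examined in epithelial cells from the distal tips of the mouse embryonic lung. The members were the 3 genes of these names, of 17813 genes that the arrays measured through a probe set naming 1 gene. Each rested on 1 probe set, so no second probe set could be compared with it. Tip epithelium was microdissected by hand after dispase treatment at E11.5 (5 arrays), and GFP+ cells were sorted by flow cytometry after trypsin dissociation at E17.5 (5 arrays). All embryos were labelled *Id2-CreER; Rosa26R-fGFP*, in which tamoxifen lets the Cre made in *Id2*-expressing cells switch on a heritable GFP. For the E17.5 samples the dams had received tamoxifen, 150 µg per gram of body weight at E16.5, and the sort also took up a small number of the tip cells' immediate progeny. Stage, tamoxifen and isolation cannot be told apart here. Each array is named a biological replicate, without mention of litters, so p-values measure the spread between these samples only.

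C/EBPs are basic leucine zipper (bZIP) transcription factors that bind DNA as dimers. C/EBPα drives the maturation of surfactant-producing alveolar type 2 (AT2) cells and stops cells from cycling. C/EBPβ and C/EBPδ are induced quickly by cytokines, cAMP and glucocorticoids and switch on acute phase and inflammatory genes. All 3 factors are also made in macrophages and granulocytes. The comparison asked how the RNA of these factors, their relatives, regulators and linked gene groups differed between an early tip and a tip that had begun to form alveoli.

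The promoters of *Cebpa* and *Cebpb* are shown because both genes rose between the stages, and no more is claimed for the letters than that they are there. The sequences are the 250 bases before the annotated start of transcription, from RefSeq on GRCm38.p6, plus strand, 5′ to 3′. Matching by symbol found 2 of the 3 members, and *Cebpd* is named only. Capitals mark TATAAA (plus strand only) and TGACG, the core of the cAMP response element, on either strand.
*Cebpa*, chr7:35119043-35119292: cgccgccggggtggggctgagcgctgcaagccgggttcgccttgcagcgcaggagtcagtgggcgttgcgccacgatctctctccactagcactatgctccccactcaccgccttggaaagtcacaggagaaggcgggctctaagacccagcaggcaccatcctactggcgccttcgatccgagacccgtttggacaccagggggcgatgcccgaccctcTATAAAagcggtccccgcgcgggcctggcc
*Cebpb*, chr2:167688665-167688914: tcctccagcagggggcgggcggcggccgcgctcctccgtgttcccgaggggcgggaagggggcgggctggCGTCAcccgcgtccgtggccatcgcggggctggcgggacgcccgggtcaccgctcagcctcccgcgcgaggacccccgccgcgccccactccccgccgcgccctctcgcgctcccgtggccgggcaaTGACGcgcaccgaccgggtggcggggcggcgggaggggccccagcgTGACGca

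*Cebpa* held TATAAA from 30 bases before the start, which 7.59% of 32851 mouse promoter windows of this length held, and no TGACG. *Cebpb* held TGACG at 3 places (from 180 bases before the start on the minus strand, and from 53 and 7 on the plus strand), a motif found in 17.8% of all windows. It also held the GC box GGGCGG 5 times, of which a pair overlap (32.7% of windows hold 1 or more). GC content was 66.4% for *Cebpa* and 81.6% for *Cebpb*, against a median of 52.4%. TTGCNNAA (the C/EBP core, in 9.56% of windows), TTCNNNGAA (a STAT site, in 7.02%) and CCAAT (in 33.8%) were searched on both strands, and these letters were in neither window.

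All 3 members were higher at E17.5, and every E17.5 array lay above every E11.5 array for each. *Cebpa* had log2 signals of 10.49, 10.50, 10.46, 10.51 and 10.48 on E11.5 replicates 1 to 5 and 13.48, 13.37, 13.37, 13.30 and 13.38 on E17.5 replicates 1 to 5. The *Cebpa* arrays of a stage lay within 0.05 of each other at E11.5 and within 0.17 at E17.5, and a gap of 2.79 separated the stages. *Cebpa* rose 7.42-fold, from 10.49 ± 0.02 (SD, n = 5 arrays) to 13.38 ± 0.06 (SD, n = 5), a log2 difference of 2.89 (standard error 0.07, adjusted p = 5.7e-12 from limma). Its E11.5 signal lay above the medians of the arrays over all probe sets, which ran from 7.01 to 7.14 at that stage.

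*Cebpb* had log2 signals of 6.36, 6.36, 6.66, 6.29 and 6.18 at E11.5 and 10.57, 10.92, 10.81, 10.52 and 10.54 at E17.5. The E11.5 signals were all under the array medians, and the stages were 3.86 apart at their nearest arrays. *Cebpb* rose 19.7-fold, from 6.37 ± 0.18 (SD, n = 5) to 10.67 ± 0.18 (SD, n = 5), a log2 difference of 4.30 (standard error 0.12, adjusted p = 1.2e-11 from limma).

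*Cebpd* had log2 signals of 6.64, 6.13, 6.44, 6.38 and 6.20 at E11.5 and 11.08, 11.41, 11.34, 10.79 and 11.03 at E17.5. It was the most spread of the members in both stages, with ranges of 0.52 and 0.63, and its nearest arrays were 4.14 apart. *Cebpd* rose 27.3-fold, from 6.36 ± 0.20 (SD, n = 5) to 11.13 ± 0.25 (SD, n = 5), a log2 difference of 4.77 (standard error 0.14, adjusted p = 2.3e-11 from limma).

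A large share of all genes moved between these samples. In limma at a Benjamini-Hochberg adjusted p under 0.05, 68.4% of genes passed, 36.9% higher at E17.5 and 31.5% lower, or 6568 and 5609 genes (after quantile normalization 5676 and 6949, after centring each array on its median 5509 and 7922). Arrays did not overlap for 32.3% of genes in the higher direction and 26.3% in the lower, and 24.2% of genes were called higher by at least 2-fold, as all 3 members were. The *Cebpd* difference was the 244th largest rise of 17813 genes, *Cebpb* the 372nd and *Cebpa* the 1261st, which places 1.37%, 2.09% and 7.08% of genes at or beyond them.

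**Figure D1:**
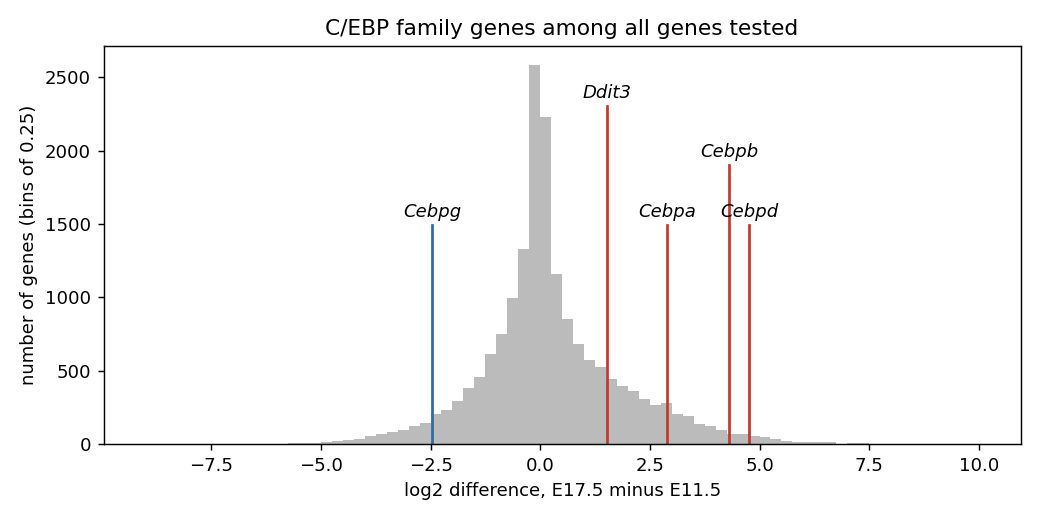
Histogram of the log2 difference between stages (x axis, E17.5 minus E11.5) over 17813 genes (y axis, number of genes in bins of 0.25), with lines at the C/EBP genes (red, higher; blue, lower; line heights carry no value). *Cebpb* (4.30) and *Cebpd* (4.77) lie in the right tail, *Cebpa* (2.89) and *Ddit3* (1.53) nearer the centre, and *Cebpg* (-2.47) on the left.

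The log2 signals of the members did not change by the same amount. Whether their probe sets respond alike to the same change in RNA was not tested. Levels of different probe sets cannot be set against each other, so the difference between 2 members was taken on each array and compared between stages with a two-sided exact permutation test, whose smallest p for 5 against 5 arrays is 0.00794. The rise of *Cebpb* exceeded that of *Cebpa* by 1.41 on the log2 scale, or 2.66-fold (exact p = 0.00794, adjusted p = 0.0119 over 3 pairs). The rise of *Cebpd* exceeded that of *Cebpa* by 1.88, or 3.68-fold (exact p = 0.00794, adjusted p = 0.0119). Between *Cebpd* and *Cebpb* the excess was 0.47, or 1.38-fold (exact p = 0.0159, adjusted p = 0.0159), and here the arrays of the stages overlapped, at 0.26 to 0.53 for E17.5 and -0.23 to 0.28 for E11.5.

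The other measured relatives went in opposite directions. *Cebpg*, which encodes a C/EBP that lacks a strong activation domain and pairs with other bZIP proteins, had log2 signals of 9.79, 10, 9.93, 9.93 and 10.01 at E11.5 and 7.69, 7.76, 7.42, 7.39 and 7.08 at E17.5. Every E17.5 array was lower, and *Cebpg* fell by 2.47 on the log2 scale (5.52-fold lower, standard error 0.12, adjusted p = 3.1e-09 from limma). Its start lies 62.7 kb from that of *Cebpa* on chromosome 7, on the opposite strand. *Ddit3*, which encodes CHOP, a stress-induced C/EBP that blocks the binding of its partners, had log2 signals of 7.99, 8.44, 8.15, 8.10 and 8.15 at E11.5 and 10.07, 9.54, 9.85, 9.42 and 9.59 at E17.5. *Ddit3* rose 2.89-fold without overlap (log2 difference 1.53, standard error 0.13, adjusted p = 5.1e-07 from limma). *Cebpe*, the granulocyte member, was not analysed here.

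**Figure D2:**
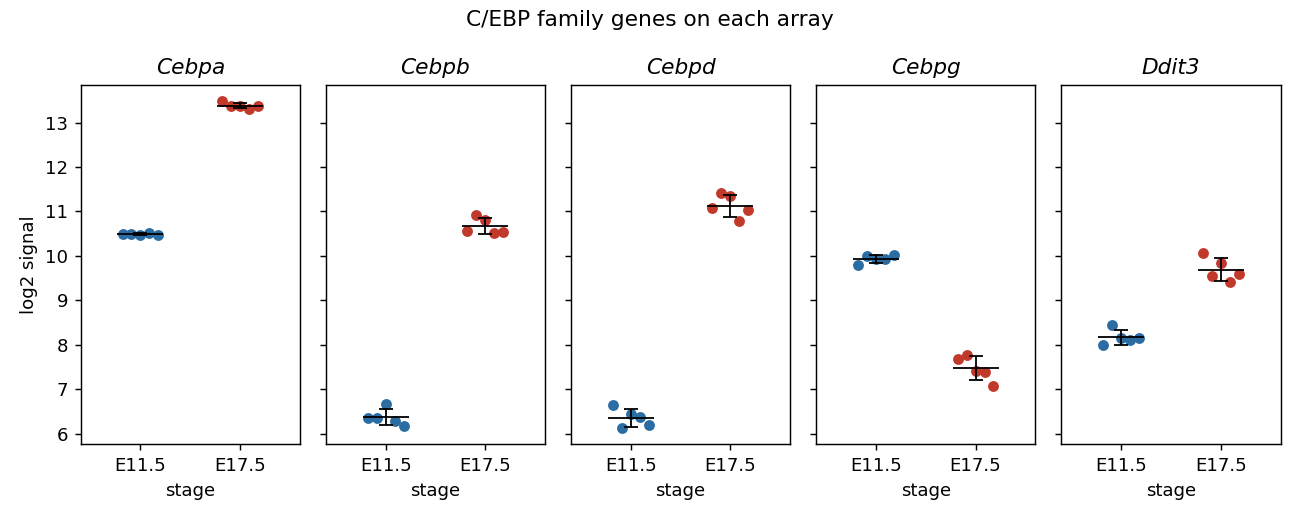
Log2 signal (y axis) of *Cebpa*, *Cebpb*, *Cebpd*, *Cebpg* and *Ddit3* on each array (blue points, 5 at E11.5, and red points, 5 at E17.5), with a black bar at the mean and whiskers of 1 SD. The stages do not overlap for any of the genes, and *Cebpg* alone of those drawn is lower at E17.5. Heights may be compared within a panel, not between panels.

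Genes whose proteins can pair with C/EBPs, or bind related sites, were mostly higher. Of 16 bZIP genes, 11 were higher and 3 lower. Their median log2 difference was 1.42, against 0.03 over all genes. *Fos* and *Junb*, subunits of AP-1, rose 151-fold and 17.8-fold, *Atf3*, a stress-induced factor, 84.4-fold, and *Tef*, of the clock-linked PAR group, 44.0-fold. *Creb1*, the cAMP-responsive factor, fell by 1.73 on the log2 scale, *Dbp* (PAR group) by 1.37 and *Batf3* by 0.73. *Atf5* and *Hlf* had log2 differences of -0.15 and -0.12 (adjusted p = 0.33 and 0.62 from limma), and *Atf5* passed as lower after quantile normalization (-0.73) and median centring (-0.40). The list shares *Atf3*, *Fos*, *Jun* and *Junb* with the immediate early genes described further on. These carry 4 of its 11 rises.

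Upstream regulators were divided, as were all genes (36.9% higher and 31.5% lower). The list of inducers had 6 of 11 measured genes higher and 3 lower, with a median of 0.78. After quantile normalization 5 were higher and 4 lower, with a median of 0.18. *Il1b* and its receptor *Il1r1*, an inflammatory ligand and its signalling receptor, were higher by 5.87 and 5.76 on the log2 scale. *Stat5a* and *Osmr*, a JAK-STAT factor and a receptor of the IL6 family, were higher by 5.28 and 5.20. The ligand gene *Il6*, named outside the rule after its value was seen, was higher by 4.55 (adjusted p = 1.1e-07). *Stat3* and *Il6st*, the factor and the shared receptor subunit through which IL6 induces *Cebpd*, were lower, with log2 differences of -1.26 and -1.64. Each rests on 1 probe set. The *Stat3* means (6.09 at E11.5, 4.83 at E17.5) were under the array medians of 7.01 to 7.23, as was *Il6st* at E17.5 (6.23). Activity of the proteins was not measured. The third lower gene was *Creb1*. *Nr3c1*, the glucocorticoid receptor, had a log2 difference of -0.12 (adjusted p = 0.3 from limma), which passed as lower after quantile normalization (-0.35) and median centring (-0.36). *Il6ra* had one of -0.12 (adjusted p = 0.46), and passed as lower after median centring (-0.36).

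Glucocorticoid-induced genes were higher as a list, with 9 of 10 higher, 1 lower and a median of 3.14. *Zfp36*, which promotes the decay of inflammatory mRNAs, rose 37.0-fold. The kinase gene *Sgk1* rose 15.5-fold, the EGFR inhibitor gene *Errfi1* 14.2-fold and the clock gene *Per1* 13.3-fold. *Cdkn1c*, a CDK inhibitor gene, fell by 1.22 on the log2 scale. *Dusp1* and *Zfp36* also stand in the immediate early list.

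The listed transcription factors of lung epithelium, airway and tip factors among them, did not rise with *Cebpa*. Of 9 such genes none was higher in limma (0 at an unadjusted p under 0.05) and 6 were lower (8 lower after quantile normalization and 7 after median centring), with a median of -0.57. *Sox2*, which marks the airway epithelium, fell by 4.43 on the log2 scale, *Nfib*, needed for lung maturation, by 2.27, and *Etv5*, a target of FGF signalling at the tip, by 1.35. *Foxa2* and *Foxa1*, which open chromatin at lung genes, were lower, with log2 differences of -0.92 and -0.48, and *Klf5* by 0.57 (adjusted p = 0.023 from limma; 0.052, 0.054 and 0.058 without E11.5 replicate 2, E11.5 replicate 3 or E17.5 replicate 5). *Nkx2-1*, the master regulator of lung identity, had a log2 difference of 0.10 (adjusted p = 0.72 from limma; -0.47 after quantile normalization). *Gata6* had one of -0.09 (adjusted p = 0.51), and *Sox9*, the tip factor, one of -0.02 (adjusted p = 0.92). Both passed as lower after quantile normalization, at -0.62 and -0.59.

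Genes that control the C/EBP proteins after translation passed the limma test too, as did 68.4% of all genes. *Trib1* and *Trib2* encode adaptors that bring C/EBPα to the ubiquitin ligase COP1 for breakdown. *Trib1* rose 5.18-fold (log2 difference 2.37, adjusted p = 2.2e-08 from limma) and *Trib2* 9.14-fold (3.19, adjusted p = 3.2e-07). *Trib3*, a stress-induced relative, rose 2.30-fold (adjusted p = 0.0012) and *Cop1* fell by 0.26 (adjusted p = 0.011). Of 10 cell cycle genes linked to C/EBPα, 7 were higher and 2 lower (5 and 2 after quantile normalization), with a median of 1.11. Over all genes 36.9% were higher and 31.5% lower, with a median of 0.03. *Cdk2*, a kinase that C/EBPα inhibits, rose 11.7-fold, and the retinoblastoma family genes *Rb1* and *Rbl1* 8.84-fold and 3.03-fold. *Mycn*, a transcription factor of the early tip, rose 2.79-fold. *Cdk4* and *E2f4* were lower, at -0.63 and -0.80, and *Rbl2* had a log2 difference of 0.08 (adjusted p = 0.67). Protein levels and binding were not measured.

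Gene lists linked to the factors rose to different extents, and whether the factors control these genes here was not tested. Of 17 surfactant and AT2 genes, 16 were higher and 1 was lower, with a median log2 difference of 4.96. *Slc34a2*, *Napsa*, *Sftpd* and *Lyz2*, a phosphate carrier, a surfactant protease, a surfactant protein and a lysozyme, were higher by 9.26, 8.45, 8.13 and 7.53 on the log2 scale. *Lpcat1*, an enzyme of surfactant lipid remodelling, went the other way, from a mean of 7.90 to 3.17, and fell by 4.73 (adjusted p = 5.5e-13 from limma). This value rests on 1 probe set, and which transcript it reports was not tested. The E17.5 mean of *Lpcat1* lay near the lowest signal of any probe set (2.472). By antibody staining, which measures protein and not RNA, the authors found LPCAT1 robustly in tips from E16.5. Of 9 club cell genes, 8 were higher and none lower, with a median of 2.49. The secretoglobins *Scgb1a1*, *Scgb3a2* and *Scgb3a1* were higher by 8.97, 8.34 and 2.98, and *Cyp2f2*, a club cell cytochrome P450, by 7.31, while *Aldh1a1* had a difference of -0.04 (adjusted p = 0.92).

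Of 18 measured acute phase and inflammatory genes, 17 were higher and 1 was lower, with a median of 4.17 (14 higher after median centring). *Lcn2*, an iron-trapping defence protein and a classical target of C/EBPβ and C/EBPδ, rose 197-fold, and *Ptgs2*, which encodes cyclooxygenase 2, 150-fold. The chemokine gene *Cxcl2* and the cytokine gene *Il1b* rose 144-fold and 58.4-fold. *Saa1*, a serum amyloid gene, fell by 0.84 on the log2 scale. The mean log2 signal of the list ran from 4.66 to 4.85 at E11.5 and from 7.62 to 9.01 at E17.5, and E17.5 replicate 4 was lowest.

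The fat cell and liver genes that C/EBPα controls elsewhere had lower medians than the surfactant, club cell and alveolar type 1 lists, but not than the lung epithelial factors. Of 12 adipogenic genes, 6 were higher and 2 lower (4 and 3 after quantile normalization), with a median of 0.42. *Cd36* and *Fabp4*, which carry fatty acids, were higher by 8.11 and 3.52 on the log2 scale and the lipase gene *Lpl* by 2.53, while *Acaca*, of fatty acid synthesis, fell by 2.58 and *Dgat2* by 0.52. *Adipoq*, *Lep*, *Slc2a4* and *Cidec* had log2 differences of 0.04, 0.28, -0.15 and -0.08 and did not pass, although *Slc2a4* passed as lower after both scalings (-0.43 and -0.40) and *Cidec* after median centring (-0.32). Of 9 measured hepatic genes, 2 were higher (*Alb*, by 4.58, and *Otc*, by 0.27) and 2 lower (*Cps1* at -2.21 and *Arg1* at -1.32), with a median of 0.10. *Otc* was at 0.03 after median centring and no longer passed (adjusted p = 0.84). The others (*Pck1*, *G6pc*, *Tat*, *Ttr* and *Apoa1*) had log2 differences of 0.19, 0.10, -0.08, -0.98 and 0.17 and did not pass, but *Pck1* passed as higher after quantile normalization (0.27), *Tat* as lower after median centring (-0.32) and *Ttr* as lower without E17.5 replicate 5 (-1.51).

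**Figure D3:**
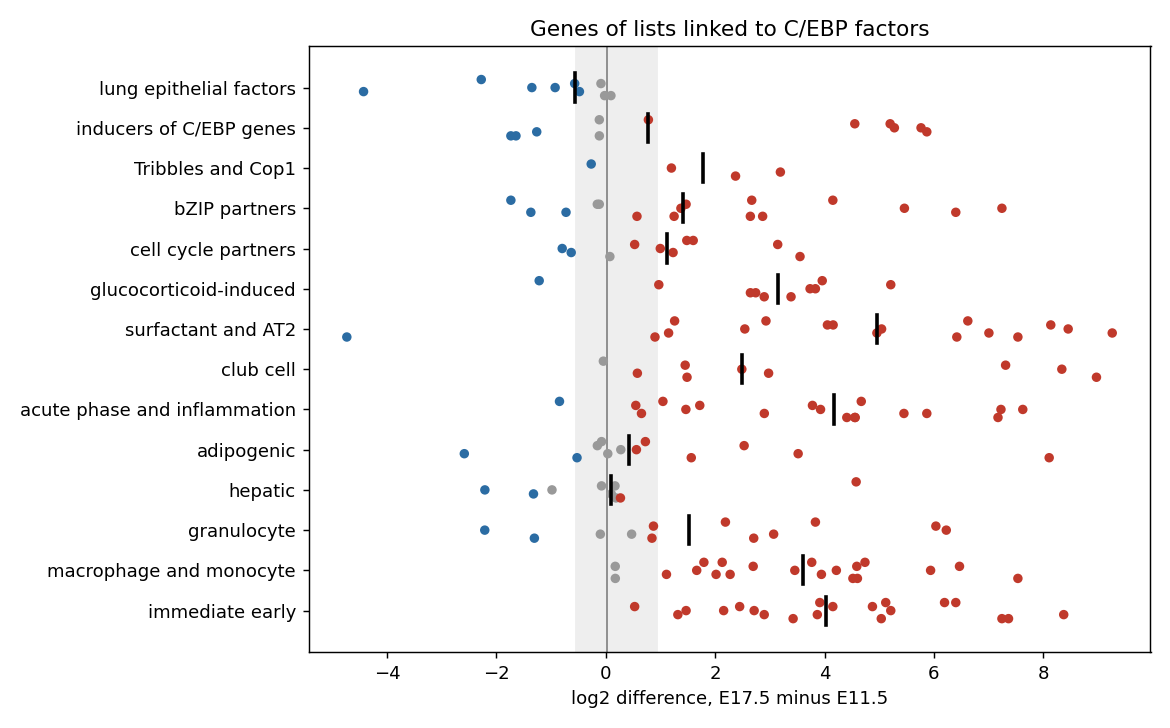
Log2 difference between stages (x axis, E17.5 minus E11.5) of each gene (points) of 14 lists (y axis), coloured red where higher, blue where lower and grey where the limma test was not passed, with a black bar at each list's median. The grey band spans the interquartile range of all genes and the grey line is their median (0.03). Surfactant, acute phase, immediate early and macrophage lists lie mostly right of the band, the adipogenic and hepatic medians within it.

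Markers of other cells that make C/EBPs moved with the members, and so did all 10 endothelial markers (median log2 difference 4.3). Among 20 markers of macrophages and monocytes, 18 rose and none was lower, with a median log2 difference of 3.61. Their mean log2 signal ran from 5.58 to 6.40 on the early arrays and from 8.90 to 9.78 on the late ones. *Lyz2*, which is also on the surfactant and AT2 list, *Cd53*, *Ccr2* and *Cd14* were higher by 7.53, 6.47, 5.94 and 4.74 on the log2 scale. The complement gene *C1qb* and the integrin gene *Itgam* had differences of 0.17 and 0.18 (adjusted p = 0.71 and 0.3 from limma). Of 12 granulocyte genes, 8 were higher and 2 lower, with a median of 1.53. *S100a8* and *S100a9* were higher by 6.22 and 6.03, *Mmp8* by 3.83 and *Ngp* by 3.07. The granule enzyme genes *Mpo* and *Prtn3*, made in immature cells, were lower, with log2 differences of -1.30 and -2.21. *Elane* and *Cxcr2* had log2 differences of -0.10 and 0.47 and did not pass, although *Cxcr2* passed as higher after quantile normalization (0.55, adjusted p = 0.044). Array signals have no true zero, so no marker can be called absent.

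Immediate early genes, which respond within minutes to cell handling, were higher throughout the list. All 20 were higher, with a median of 4.03 (19 after quantile normalization or median centring), and *Fosb* and *Egr2* rose 331-fold and 165-fold. Their mean log2 signal ran from 7.76 to 7.94 on the early arrays and from 11.96 to 12.25 on the late ones. *Cebpb* and *Cebpd* are themselves early response genes. The part of other cell types, of handling and of cell numbers in the rise of the members was not tested, and in bulk samples more cells of a type and more RNA per cell cannot be told apart.

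Among the E17.5 arrays, *Cebpb* and *Cebpd* shared an order that *Cebpa* did not have, a reading made after the values were seen. From highest to lowest, replicates 2, 3, 1, 5 and 4 followed each other for both genes, and for the macrophage list in turn (9.78, 9.76, 9.75, 9.13 and 8.90), which alone of 20 lists had this order. The order rests on near ties, since the list was about as high on replicate 1 as on 2 and 3, while *Cebpb* on replicate 1 (10.57) lay with replicates 5 (10.54) and 4 (10.52). The club cell, acute phase, granulocyte and Tribbles lists were also lowest on replicate 4 and next lowest on replicate 5. At E11.5 the order of *Cebpd* (replicates 1, 3, 4, 5 and 2) was that of the macrophage list, of the inducers and of the glucocorticoid-induced genes. The E11.5 order of *Cebpb* was that of 0 of the 20 lists, and its replicate 2 (6.36) was not low, although the macrophage list was lowest there (5.58). *Cebpa* was highest on replicate 1 at E17.5 and lowest on replicate 4, and its order differed from that of the lung epithelial factors only in replicates 2 and 3, both at 13.37 for *Cebpa*. The surfactant and AT2 list had its lowest means on replicates 4 (12.26) and 5 (12.45), and the immediate early list was highest on replicates 1 (12.25) and 5 (12.24). These spreads, of 0.39 for *Cebpb*, 0.63 for *Cebpd* and 0.87 for the macrophage list, were small beside the differences between stages.

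**Figure D4:**
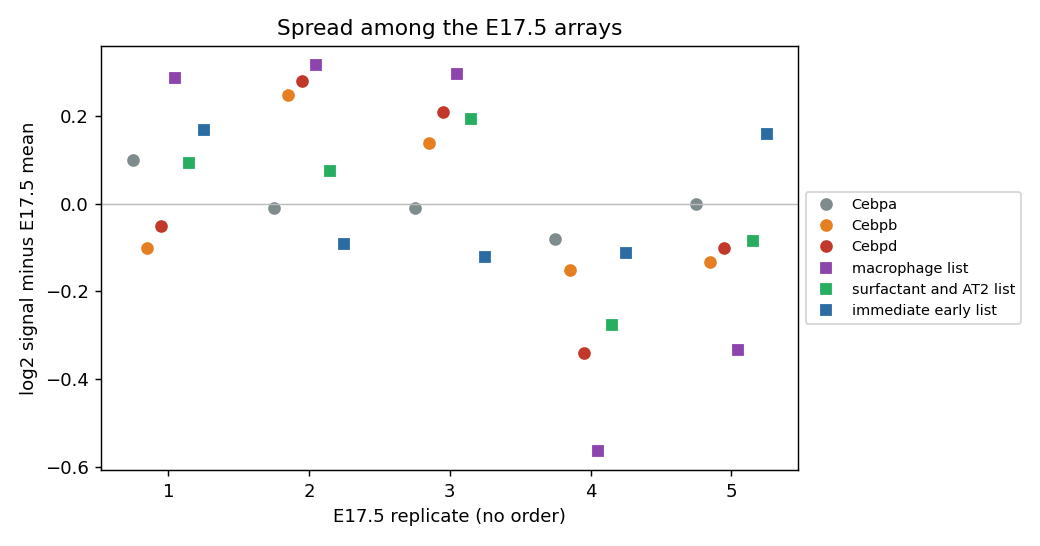
Deviation of each E17.5 array (x axis, replicates 1 to 5, which have no order) from the mean of the 5 arrays (y axis, log2 signal) for *Cebpa*, *Cebpb* and *Cebpd* (circles) and for the mean of 3 gene lists (squares). *Cebpb* and *Cebpd* are highest on replicates 2 and 3 and lowest on replicate 4, the macrophage list is high on replicates 1, 2 and 3 and lowest on 4, while the *Cebpa* values span 0.17.

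The labelled tissue was checked against its markers. The mean of 14 epithelial genes ran from 11.83 to 12.05 on the early arrays and from 12.43 to 12.71 on the late ones, with 9 higher and 3 lower (*Cldn6*, *Esrp1* and *Spint2*). After quantile normalization 6 were higher and 4 lower, with *Cldn7* added at -0.45, and after median centring 7 were higher and 3 lower. Against shares of 36.9% higher and 31.5% lower over all genes stand the counts of the next lists. Of 11 tip genes, 4 were higher and 5 lower (7 lower after quantile normalization). Of these *Id2*, whose locus drives the CreER, rose 4.28-fold, with *Mycn*, *Foxp1* and *Bmp4* also higher, while *Bmp4* passed as lower after quantile normalization (0.29 as deposited, -0.28 there). *Shh*, *Spry2*, *Etv4*, *Etv5* and *Foxp2* were lower. Of 11 alveolar type 1 genes, 10 were higher, with *Hopx* at 40.3-fold, and *Igfbp2* was lower. Of 11 mesenchymal markers, 5 were higher and 3 lower, and all 10 endothelial markers were higher, with means of 5.01 to 6.24 on the early arrays and 8.84 to 10.90 on the late ones.

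Many genes followed the same course as the members over the 10 arrays. Pearson's r with the log2 signal exceeded 0.99 for 1621 genes in the case of *Cebpa*, 1253 for *Cebpb* and 1172 for *Cebpd*, and with arrays that fall into 2 stages such an r rests mainly on the stage difference. The genes most like *Cebpa* were *Tmem243* (r = 0.9998), *App* (r = 0.9998) and *Tpt1* (r = 0.9997). Those most like *Cebpb* were *Csnk1a1* (r = 0.9993), *Pskh1* (r = 0.9993) and *Limk1* (r = 0.9991). Those most like *Cebpd* were *A530020G20Rik* (r = 0.9993), the IL36 receptor gene *Il1rl2* (r = 0.9992) and *Lyz2* (r = 0.9992), which AT2 cells and macrophages both express. These values are descriptions, and no test was made of them.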

How the data were processed

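The authors amplified RNA of 10 samples with NuGEN kits, hybridised it to Affymetrix mouse arrays and used Bioconductor for the analysis. The deposited table gives a log2 signal for each of 21204 probe sets, between 2.472 and 15.03. The sources used here name no method of background correction or normalization. The log2 unit was inferred from the values. Array number limits precision.

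Gene names came from the platform annotation. Only the 17981 probe sets with 1 gene entered, the brightest standing for its gene. Limma 3.58.1 (lmFit, eBayes) in R 4.3.3 compared E17.5 with E11.5, with Benjamini-Hochberg adjustment over 17813 genes at 0.05. A fold is the antilog of the difference of mean log2 signals. Member pairs were compared by exact permutation in scipy 1.17.1. The limma step was tested on simulated data. Centring used the median over genes and moved the median log2 difference of all genes from 0.03 to -0.22; quantile normalization moved it to -0.04.

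The members, the 20 gene lists and the tests were chosen with earlier results of these data known. The text names the members, all C/EBP relatives, lung factors and Tribbles genes, up to 4 called genes with the greatest change in any other list, genes needed to give names to a count of 5 or fewer, and the 3 genes best correlated with each member. Alternatives were quantile normalization, median centring, averaged or unsuffixed probe sets, a filter on dim genes, a replicate block, weighted arrays, eBayes with trend and robust, a test beyond 2-fold, and omission of each array.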

Additional observations from a re-analysis of the deposited data

Results flagged for a closer look

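In groups of 5 arrays, 314 sets of values were checked for a single array standing far from the rest, by its gap to the nearest array over the range. Chance gives about 1 in 20, or about 16, and 18 were found. No C/EBP member was among them.

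At E11.5, replicate 1 was low for *Nkx2-1* (8.73, nearest other array 9.49), *Cldn6* (13.27, nearest 13.54) and *Cldn7* (12.39, nearest 12.86). Replicate 2 was high for *Rbl2* (8.37, nearest 8.03) and low for *Tie1* (4.55, nearest 5.29) and for the mean of the alveolar type 1 list (8.61, nearest 8.68). Replicate 3 was high for *Csnk1a1* (10.03, nearest 9.89), *Limk1* (8.36, nearest 8.14) and *Saa1* (6.80, nearest 5.87). Replicate 5 was low for *Batf3* (6.90, nearest 7.22) and high for *Lcn2* (4.78, nearest 4.17).

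At E17.5, replicate 1 was high for *Trib1* (11.46, nearest 10.82) and *Elf3* (10.16, nearest 9.45). Replicate 4 was low for *Sgk1* (12.22, nearest 12.95), *Arg1* (6.19, nearest 7.04), *Spint2* (12.05, nearest 12.13), the mean of the Tribbles and *Cop1* list (9.73, nearest 10.07) and the mean of the adipogenic list (8.05, nearest 8.22).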

How the results depend on the processing

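The rises of *Cebpa*, *Cebpb* and *Cebpd* kept their direction and passed the threshold under each of 19 alternatives. Leaving out each array in turn gave log2 differences of 2.87 to 2.91, 4.24 to 4.37 and 4.70 to 4.86, and the other alternatives 2.41 to 2.89, 3.98 to 4.31 and 4.45 to 4.83. Leaving out dim genes lowered the count of genes lower at E17.5 to 3404, with 9705 genes tested. Leaving out each array gave 6356 to 6596 genes higher and 5384 to 5616 lower. The excess of one member's rise over another's was 1.35 to 1.49, 1.81 to 1.95 and 0.41 to 0.54 without each array. Same-numbered arrays did not deviate together (correlations -0.29, -0.18, -0.01, -0.10 and 0.07). The stages were isolated differently and a shared source need not show in this way, so whether the numbers pair the samples stays undecided. With the replicate number as a block, 6385 genes were higher and 5349 lower, and sign flips within numbered pairs left the 3 differences at 1.41, 1.88 and 0.47, each with exact p = 0.0625, the smallest that 5 pairs allow. *Bmp4* reversed to -0.28 after quantile normalization and no longer passed in 7 other alternatives, those without E11.5 replicate 3, 4 or 5 or without E17.5 replicate 4 or 5 among them. *Otc* no longer passed in 4, without E11.5 replicate 1 or E17.5 replicate 1 among them. *Pck1* (0.24 and 0.23) and *Cxcr2* (0.59 and 0.60) passed without E11.5 replicate 3 or E17.5 replicate 4, *Col1a1* (0.85) and *Pdgfrb* (0.92) without E17.5 replicate 1, and *Cldn4* (0.51) without E11.5 replicate 2. The causes were not tested. Stage and isolation method cannot be told apart, and the normalization before deposit is unknown.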

Other observations

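The measured genes next to the members, chosen by position after values were seen, changed less, as most genes did. The gene before *Cebpa*, *Gm45095*, was not analysed. *Slc7a10*, after *Cebpa*, had a log2 difference of 1.16 (adjusted p = 0.00098 from limma). Beside *Cebpb*, *Tmem189* was at -0.44 (adjusted p = 0.0013) and *Ptpn1* at -0.14 (adjusted p = 0.27). Beside *Cebpd*, *Mzt2* was at -0.45 (adjusted p = 0.0038) and *Spidr* at 0.04 (adjusted p = 0.78).

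Of the mesenchymal markers, *Tcf21*, *Col1a2*, *Col3a1* and *Fn1* were higher at E17.5 by 4.95, 2.77, 2.12 and 1.67 on the log2 scale, and *Dcn*, *Pdgfra* and *Tbx4* were lower, at -1.45, -1.21 and -1.09. Among endothelial markers *Emcn* and *Pecam1* were higher by 5.99 and 5.27.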
